A study of Mus musculus with 14 samples.

Results

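The regions described here are stretches of mouse chromatin that were accessible in all 3 small cell lung cancer lines of the RPR2 genotype and had stayed accessible in a single line of the RPR2;Nfibf/f genotype, 1399P1. ATAC-seq marks open DNA with a transposase, which inserts sequencing adapters where it can reach, and accessibility is given here as called peaks. The peak intervals of all 14 libraries on chromosomes 1 to 19 and X were merged wherever they shared at least 1 bp, which gave 177577 regions. A region was open in a line when both libraries of the line had a peak in it and closed when neither had. Regions open in 1399P1, 1373M1, 12N1G and N2N1G and closed in 1398M1, 1399M4 and 1398P2 were kept, 1118 in all, which is 0.63% of the merged regions and 0.937% of the 119314 regions open in at least 1 line. The members were thus chosen by the presence or absence of called peaks in these same libraries, so peak presence and strength are given as a description, without a test.

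Each of the 7 cell lines, grown in suspension, had 2 libraries. The 4 Nfibf/f lines were 1399P1 and 1398P2, from lung tumors, and 1398M1 and 1399M4, from liver metastases of RPR2;Nfibf/f mice. The 3 RPR2 lines were 1373M1, from a liver metastasis, and 12N1G and N2N1G, from lymph node metastases of RPR2 mice. RPR2 stands in this field for floxed Rb1, Trp53 and Rbl2, tumor suppressor genes that both genotypes therefore share, and f/f for a pair of floxed Nfib alleles; the labels give no Cre driver, no age and no state of the alleles in the lines. Genotype and tissue were crossed only in liver metastases, so lung against lymph node cannot be told apart from genotype. A lung and a liver line have the same first digits in their names (1398P2 and 1398M1, and likewise 1399P1 and 1399M4), and whether such lines are independent was not tested. The labels do not say if a line was cultured separately for each of its 2 libraries, whose spread may therefore be technical.

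NFIB belongs to the nuclear factor I family (NFIA, NFIB, NFIC and NFIX), which binds DNA as dimers at a pair of TTGGC elements and also binds a single one. In mouse small cell lung cancer, a neuroendocrine tumor that spreads early, NFIB is often amplified and is known for opening chromatin at many sites distant from genes. The comparison of genotypes asks which regions are open in RPR2 lines and closed in Nfibf/f lines, and the retained regions depart from that pattern in 1 line. The neuroendocrine markers Insm1, Chga, Chgb, Syp, Uchl1, Ncam1 and Dll3 were open at a gene end throughout, in 14 of 14 libraries. Among markers of other cells, Alb, Afp, Ptprc and Pecam1 had no such peak in any library, while Kdr, Col1a1, Apoa1 and Sftpc had one in all 14 and Scgb1a1, a marker of airway club cells, in 13. The endothelial marker Cdh5 had one in 0 of 8 Nfibf/f and 5 of 6 RPR2 libraries, and the T cell marker Cd3e in 3 of 8 Nfibf/f and 0 of 6 RPR2 libraries; their part in the results was not tested.

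One library stood apart in its number of peaks more than in its depth. The depth of a library is given as its floor, the mean number of fragments per base, solved from the deposited fold enrichments and p-values. It was 0.632 to 1.134 in 13 libraries with 64975 to 84199 peaks each, and lowest, 0.507, in 1398P2 replicate 2, with 33519 peaks. At a floor of 0.637, 1399M4 replicate 2 had 74433 peaks. Line 1399P1 had the most open regions of any line, 66396, and 1398P2 the fewest, 28947.

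Some retained regions lay over the promoter of a gene, and their sequences show what the single NFI element looks like there. In RefSeq's table of 300 bp windows, from 250 bp before to 50 bp after a transcription start on GRCm38.p6, 44 windows of 39 genes overlapped 39 retained regions, 16 of the genes being protein-coding. The windows below lay wholly inside a retained region and were picked, with their values known, because they hold TTGGCA or its reverse complement TGCCAA; a last one, Cadm3, without the NFI element, is shown beside them. They are given 5′ to 3′ on the strand of the gene, and capitals mark the NFI element in either orientation, the E-box CAGCTG and the AP-1 site TGANTCA.
Cyp2j13: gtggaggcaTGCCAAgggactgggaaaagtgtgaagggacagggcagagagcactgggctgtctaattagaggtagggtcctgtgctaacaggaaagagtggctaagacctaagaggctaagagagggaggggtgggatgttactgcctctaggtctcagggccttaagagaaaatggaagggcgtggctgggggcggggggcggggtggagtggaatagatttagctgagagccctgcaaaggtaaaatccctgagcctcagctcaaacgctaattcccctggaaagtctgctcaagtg
Slc10a6: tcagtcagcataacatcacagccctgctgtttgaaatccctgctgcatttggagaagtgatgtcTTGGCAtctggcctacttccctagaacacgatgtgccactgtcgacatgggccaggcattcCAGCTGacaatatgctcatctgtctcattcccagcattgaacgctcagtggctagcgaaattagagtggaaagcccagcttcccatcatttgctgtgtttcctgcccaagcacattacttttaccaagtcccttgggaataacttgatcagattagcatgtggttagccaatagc
Timeless: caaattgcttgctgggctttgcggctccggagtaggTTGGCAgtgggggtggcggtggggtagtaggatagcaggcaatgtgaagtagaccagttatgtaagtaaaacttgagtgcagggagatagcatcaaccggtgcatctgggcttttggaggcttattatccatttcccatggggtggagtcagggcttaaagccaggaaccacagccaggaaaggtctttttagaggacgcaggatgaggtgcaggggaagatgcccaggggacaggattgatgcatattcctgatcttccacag
Ace: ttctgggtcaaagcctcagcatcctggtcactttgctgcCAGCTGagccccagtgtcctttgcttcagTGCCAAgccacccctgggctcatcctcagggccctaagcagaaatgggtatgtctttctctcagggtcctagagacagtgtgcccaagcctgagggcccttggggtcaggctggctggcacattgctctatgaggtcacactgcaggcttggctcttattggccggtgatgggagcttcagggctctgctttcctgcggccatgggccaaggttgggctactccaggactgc
Atp6v1e2: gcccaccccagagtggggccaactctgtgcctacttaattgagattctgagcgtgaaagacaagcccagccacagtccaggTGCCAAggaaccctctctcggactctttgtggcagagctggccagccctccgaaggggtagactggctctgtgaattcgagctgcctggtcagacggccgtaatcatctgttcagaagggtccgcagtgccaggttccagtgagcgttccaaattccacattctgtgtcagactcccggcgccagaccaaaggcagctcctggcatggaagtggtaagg
Cadm3: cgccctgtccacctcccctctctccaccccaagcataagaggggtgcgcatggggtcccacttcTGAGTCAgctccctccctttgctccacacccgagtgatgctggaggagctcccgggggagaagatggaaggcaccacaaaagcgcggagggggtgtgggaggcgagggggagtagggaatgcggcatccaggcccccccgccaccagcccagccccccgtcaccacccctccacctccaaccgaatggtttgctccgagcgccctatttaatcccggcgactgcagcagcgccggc

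The windows lie at chr4:96077491-96077790 for Cyp2j13, chr5:103629354-103629653 for Slc10a6, chr10:128237816-128238115 for Timeless, chr11:105974939-105975238 for Ace, chr17:86947838-86948137 for Atp6v1e2 and chr1:173367646-173367945 for Cadm3. The windows of Timeless and Ace are on the plus strand and the other 4 on the minus strand. The regions at Timeless and Ace lay more than 1 kb from either end of the gene, so these windows are not at its outermost start. Cyp2j13 encodes a cytochrome P450, Slc10a6 a carrier of steroid sulfates, Timeless a protein of DNA replication and its checkpoint, Ace the angiotensin-converting enzyme, Atp6v1e2 a subunit of the vacuolar proton pump and Cadm3 a neural cell adhesion molecule. At the Atp6v1e2 window the highest pileup of fragments was 18 and 18 in the libraries of 1399P1, against 39 and 28 in 1373M1, 66 and 66 in 12N1G and 97 and 91 in N2N1G. Slc10a6 had 9 and 12 in 1399P1, against 24 and 19, 19 and 19, and 18 and 13 in the RPR2 lines in the same order. Both promoters were lower in 1399P1 than in every RPR2 library. At Timeless the pileup was 8 and 8 in 1399P1, against 28 and 19 in 1373M1, 18 and 10 in 12N1G and 23 and 17 in N2N1G. Ace broke from them, with 30 and 29 in 1399P1, against 24 and 18 in 1373M1, 24 and 21 in 12N1G and 19 and 37 in N2N1G, so that its groups overlapped. Cadm3 had 22 and 22 in 1399P1, against 12 and 9 in 1373M1, 40 and 47 in 12N1G and 50 and 64 in N2N1G, with 1399P1 between the liver line and the lymph node lines. Pileups are whole fragments and are not scaled for depth. The floors of these 8 libraries were 0.632 to 0.893. How many of all retained regions had fewer fragments in 1399P1 than in every RPR2 library was not counted.

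The NFI element was found in the windows of 20 of the 39 genes at retained regions, 51.3% with an exact binomial 95% interval of 34.8% to 67.6%, which covers counting error only. At RPR2-only regions, open in the same 3 RPR2 lines and closed in all 4 Nfibf/f lines, it was found in 7 of 28 genes, 25% with an interval of 10.7% to 44.9%. It was found in 4 of 20 genes at regions retained in 1398M1 alone, 4 of 37 genes (10.8%) at regions open in the 4 Nfibf/f lines and closed in the 3 RPR2 lines, 13.0% of 14364 genes at regions open in at least 1 line and 16.1% of all 26794 genes in the table. At regions that differ from the retained ones only in having a peak in 1 library of 1399P1, it was found in 1 of 11 genes (9.09%, interval 0.230% to 41.3%). At retained regions the NFI element itself lay inside the region for 19 genes. It was found for 9 of the 16 protein-coding genes and 11 of the 23 others, so both kinds of gene hold it. The median GC content was 51.0% in the retained windows, 52.2% in the RPR2-only windows, 56.3% in those of regions retained in 1398M1 alone, 51.3% in those open in Nfibf/f lines only, 60.7% in those open in at least 1 line and 52.7% in all windows. Among these sets, base composition was farthest from the retained windows at regions open in at least 1 line, and its part in the shares was not tested. These are matches of 6 letters on either strand, searched with results of these data known, in few genes and without a test; the intervals of the retained and RPR2-only shares overlap.

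The paired element was rare in every set. The full pair, TTGGC and GCCAA with 5 bases between them, which contains the shorter pair of TGGC and GCCA at the same spacing, had no match in the retained or in the RPR2-only windows, and the shorter pair had 1 match in each set, against 0.929% of all genes. The E-box CAGCTG, a site of neurogenic basic helix-loop-helix factors, was found for 8 of 39 genes at retained regions (20.5%), against 10 of 28 at RPR2-only regions (35.7%) and 4936 of all 26794 genes. The AP-1 site TGANTCA was found for 2 of 39 genes (5.13%) at retained regions, against 6 of 28 (21.4%) at RPR2-only regions and 9.03% of all genes. A window without a match says only that these letters are not in it. Most retained regions lie far from any such window, and no sequence of theirs was used here.

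**Figure D1:**
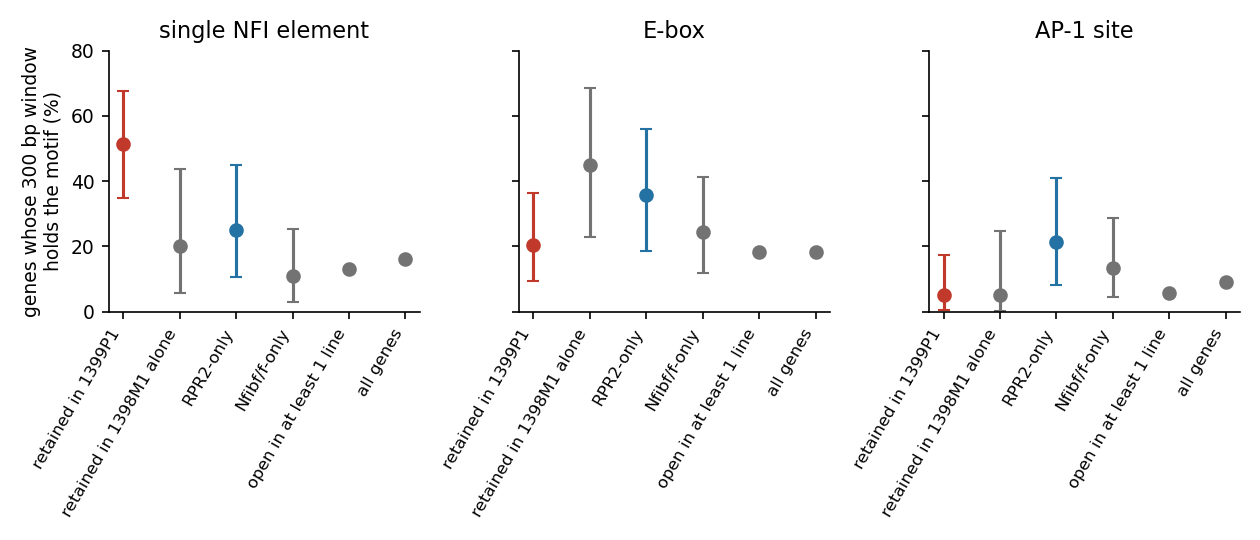
Share of genes whose 300 bp promoter window holds the single NFI element, the E-box or the AP-1 site (y axis, %), by the kind of region that overlaps the window (x axis); points are shares and bars exact binomial 95% intervals over genes. For the single NFI element the retained regions stand at 51.3% and the RPR2-only regions at 25%, with bars that overlap.

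Of the 4 Nfibf/f lines, 1399P1 had the largest share of the regions open in RPR2 lines called open. It also had the most open regions of any line, 66396 against 58459 in 1398M1. The part of this number in the counts below was not tested. Of 37428 regions open in all 3 RPR2 lines, 31749 (84.8%) were open in 1399P1, 31046 (82.9%) in 1398M1, 26192 (70.0%) in 1399M4 and 19337 (51.7%) in 1398P2. By regions open in both libraries, the order is not that of the tissues, since the lung lines stand first and last. The last place is held by 1398P2, the line with the shallowest library. There 27.9% of the regions had a peak in 1 library only and 20.4% were closed. Closed calls gave another order, with 9.22% in 1399P1, 11.3% in 1398M1 and 24.0% in 1399M4, which then stands last. Among the 3072 regions open in the 3 RPR2 lines and closed in 1398M1, 1399M4 and 1398P2, 36.4% were open in both libraries of 1399P1, 16.5% in 1 of them and 47.1% in neither. The last share is the 1446 RPR2-only regions. Applied to the other Nfibf/f lines, the same rule gave 714 regions retained in 1398M1 alone, 88 in 1399M4 alone and 2 in 1398P2 alone. The mirror image, open in 1398M1, 1399M4 and 1398P2 and closed in the 4 others, held 13 regions.

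**Figure D2:**
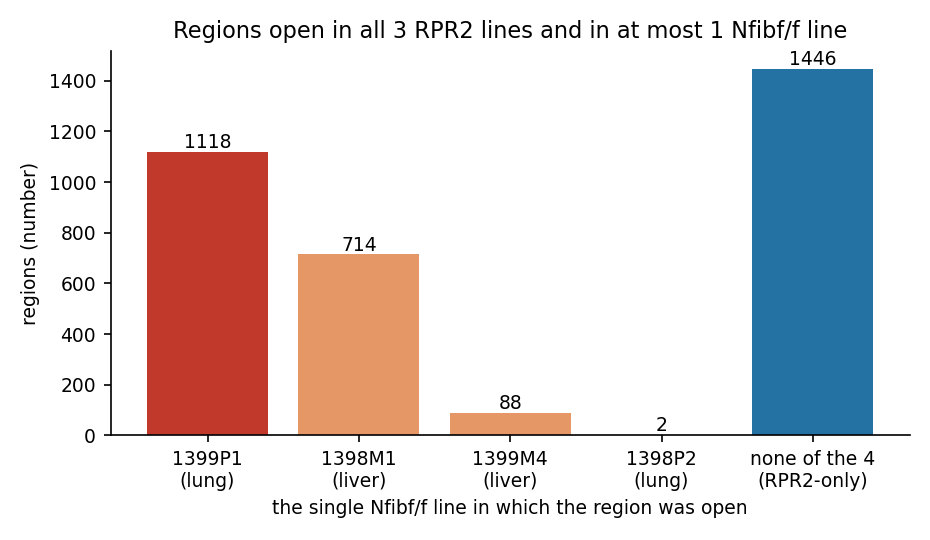
Number of regions (y axis) open in all 3 RPR2 lines and in 1 Nfibf/f line alone, by that line (x axis, with its tissue), and of RPR2-only regions, open in none of the 4 (right bar). The bars stand at 1118 for 1399P1, 714 for 1398M1, 88 for 1399M4, 2 for 1398P2 and 1446 for the RPR2-only regions.

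The retained regions were open in 1399P1, but as weak peaks of that line. Each region was ranked in a library by the fold enrichment of its highest summit among all regions with a peak there, from 0 (weakest) to 100. The median rank was 37.8 in 1399P1, against 55.6 in 1373M1, 68.6 in 12N1G and 69.6 in N2N1G. In pileup over the floor, the medians were 17.0 in 1399P1, against 32.5, 37.2 and 44.4 in the RPR2 lines in the same order. For 963 of the 1118 regions (86.1%) the rank in 1399P1 was under the mean of the 3 RPR2 lines, by a median of 21.2 points over all 1118, and 712 (63.7%) ranked under each of the 3. Only 43 (3.85%) ranked above each of them. Regions open in all 7 lines did the opposite: their median difference was 2.84 points with 1399P1 higher, and 31.9% ranked lower there. The 714 regions retained in 1398M1 alone lay between, 7.50 points lower in 1398M1 at the median and 67.1% of them lower. Since the rule asks only for a peak in 1399P1, these differences describe the kept regions and are no test of the line.

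Beside the RPR2-only regions, the retained ones were the stronger peaks of the lymph node lines. Their median ranks of 68.6 in 12N1G and 69.6 in N2N1G stood against 47.8 and 47.6 for RPR2-only regions. In the liver line 1373M1 the ranks were closer, 55.6 for retained and 44.5 for RPR2-only regions. The 508 regions with a peak in 1 library of 1399P1 had intermediate ranks of 47.0 in 1373M1, 57.7 in 12N1G and 56.7 in N2N1G. Regions retained in 1398M1 alone ranked 57.1 in 1373M1, 54.4 in 12N1G and 54.0 in N2N1G, without the lead in the lymph node lines. Peaks at retained regions were wider than at RPR2-only regions in all 3 RPR2 lines, with median widths of 500.5 to 564 bp against 370.5 to 417 bp in the 4 lymph node libraries and 435.5 and 439.5 bp against 372.5 and 387 bp in the 2 libraries of 1373M1. Regions retained in 1398M1 alone had 404.5 to 456 bp in the lymph node libraries and 449 and 455 bp in 1373M1. In 1399P1 the retained regions had 368 and 390 bp. The merged regions had a median width of 706 bp (297 to 2050 bp), against 570 bp for RPR2-only regions, 1119 bp for regions open in all 7 lines and 604 bp for regions open in any line.

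**Figure D3:**
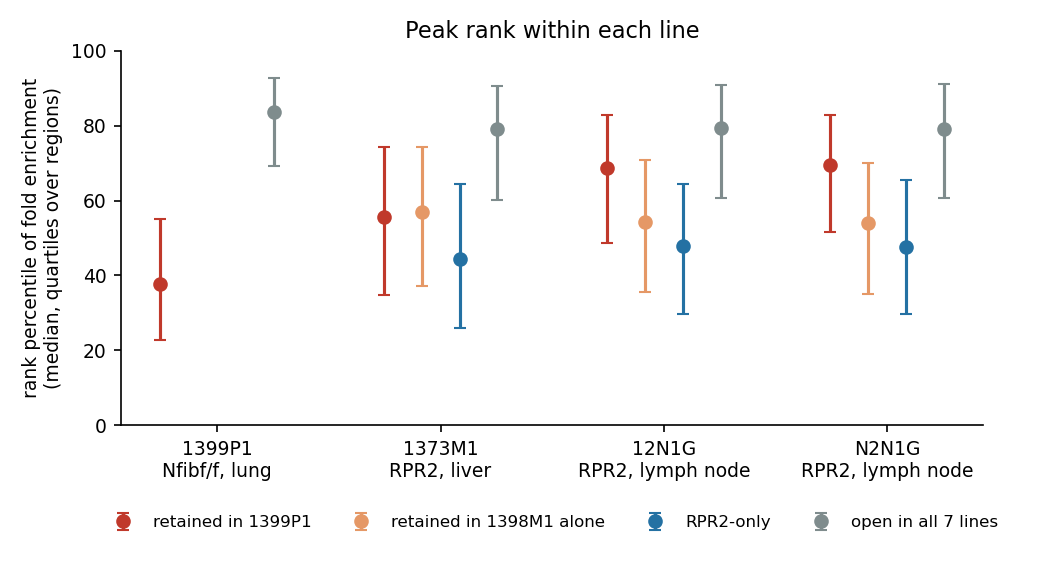
Rank percentile of fold enrichment within a line (y axis, 0 to 100) in 1399P1 and the 3 RPR2 lines (x axis), for retained regions, regions retained in 1398M1 alone, RPR2-only regions and regions open in all 7 lines; points are medians and bars quartiles over regions. Retained regions stand at 37.8 in 1399P1 and at 55.6, 68.6 and 69.6 in the RPR2 lines, and regions open in all 7 lines at 83.7 in 1399P1 and about 79 in the RPR2 lines.

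Many regions sat close to the border of the rule. A further 1378 regions would have been kept with 1 library called otherwise: 508 lacked a peak in 1 library of 1399P1, 328 lacked one in an RPR2 library, of which 164 in 1373M1 replicate 2, and 542 had a single peak in a closed line. Of the last, 236 were in 1398M1 replicate 2, 145 in 1398P2 replicate 1 and 0 in 1398P2 replicate 2, the shallowest library. For 817 members (73.1%) the weakest of the 8 calls was in 1399P1. The weakest call of a member had a median -log10 q of 5.54 and was as low as 1.33, with 64 members (5.72%) having a call under 2. The extra peaks that kept the 542 out had a median of 5.52 and ranged from 1.32 to 32.5. Each member's median pileup over the floor in the open libraries was multiplied by the floor of each library of the closed lines. In each, all 1118 expected pileups reached the lowest pileup called there at floor background. In 1398P2 replicate 2 the median expected pileup was 17.2, against a lowest call of 4. Members were chosen for being open in the first libraries, and the bar is the weakest call of each library. Counting error and the background of the region itself were left out, so the outcome was nearly fixed in advance. The part of depth in the closed calls was not tested.

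Equal numbers of peaks changed the count most. With the 33519 strongest peaks of each library, the number in the shallowest, the rule kept 228 regions, against 1138 RPR2-only regions. Of the original 1118, 78 (6.98%) remained open in 1399P1 and the 3 RPR2 lines, 831 were closed in 1399P1 and 723 were no longer open in all 3 RPR2 lines. Asking that a peak cover the greater part of the merged region left 593 retained and 1346 RPR2-only regions. Under every other setting run the count stayed between 839 and 1379.

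Few of the regions lay in the raised background over Nfia. Local background was measured in 1 Mb bins as the 10th percentile over summits, in multiples of the library's floor. In 3 bins, chromosome 4 from 95 to 98 Mb, the libraries of 1399P1 stood at 9.67 to 16.3 times their floor, against at most 1.13 in the other Nfibf/f libraries and 1.29 in the RPR2 libraries. These bins held 537 merged regions, of which 336 were open in 1399P1 and 205 in 1399P1 alone, 4 retained regions and 0 RPR2-only regions. Leaving them out would leave all but 4 of the 1118. Over the genome, 7 retained regions (0.626%) lay in bins where 1399P1 was at least 2 times its floor in both libraries, against 5 RPR2-only regions (0.346%) and 0.679% of the regions open in any line. At 1.5 times the floor the shares were 9.03%, 8.64% and 7.80% in the same order.

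The 4 retained regions of that stretch differed among themselves. The one inside Nfia, chr4:97868176-97869457, had pileups of 1215 and 1265 in 1399P1, against 39 and 39 in 1373M1, 52 and 55 in 12N1G and 64 and 82 in N2N1G. Its mean rank was 92.4 in 1399P1 and 83.5 over the RPR2 lines, where background was flat. The region over the Cyp2j13 promoter shown above, chr4:96076543-96077876, had 610 and 542 in 1399P1, against 17 and 7 in 1373M1, 33 and 46 in 12N1G and 34 and 36 in N2N1G. In both, every 1399P1 library was far above every RPR2 library in fragments. The region at chr4:95283464-95284668, 231242 bp from Jun, a subunit of AP-1, ranked 40.9 in 1399P1 and 87.2 over the RPR2 lines, with pileups of 202 and 183 against 27 to 53. The region at chr4:97503253-97504082, 73984 bp outside Nfia, ranked 22.6 in 1399P1 and 55.1 over the RPR2 lines, with pileups of 109 and 114 against 9 to 23. Whether these 4 would have been called in 1399P1 without the raised background was not tested.

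**Figure D4:**
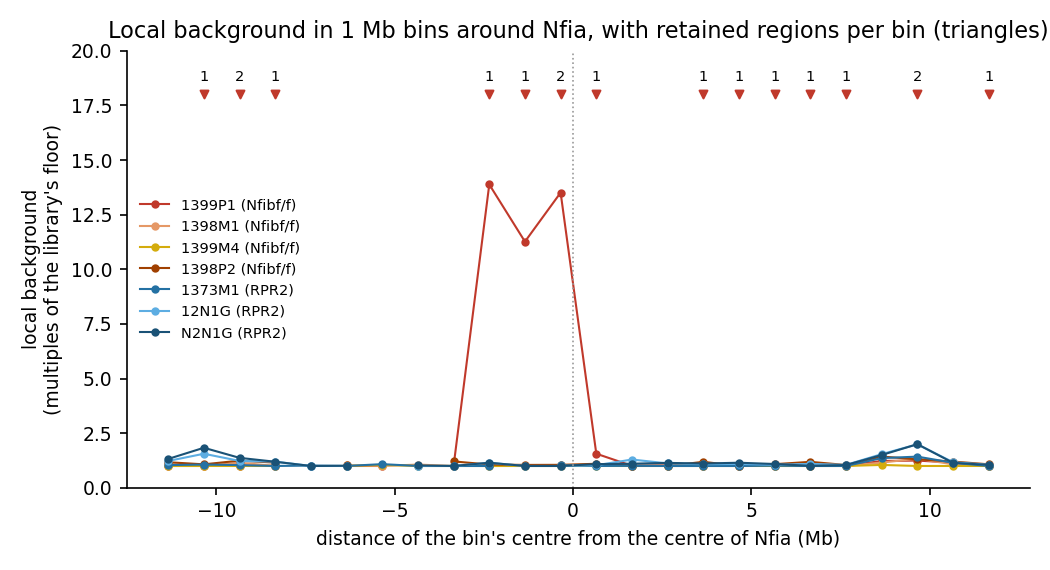
Local background in 1 Mb bins (y axis, multiples of the library's floor, mean of the 2 libraries) against the distance of the bin's centre from the centre of Nfia (x axis, Mb) for the 4 Nfibf/f and 3 RPR2 lines; triangles with numbers give the retained regions per bin. Line 1399P1 stands at 11.3 to 13.9 in 3 bins that hold 4 retained regions, while the other lines stay near 1.

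Local background at the retained regions overlapped between the genotypes. Its mean was 1.23 times the floor in 1399P1, 1.15 in 1398M1, 1.12 in 1399M4 and 1.29 in 1398P2, against 1.22 in 1373M1, 1.23 in 12N1G and 1.24 in N2N1G. The Nfibf/f lines averaged 1.196 ± 0.077 (SD, n = 4) and the RPR2 lines 1.234 ± 0.009 (SD, n = 3). The difference, RPR2 minus Nfibf/f, was 0.038 and smaller than the spread of the Nfibf/f lines (two-sided exact permutation test over lines, p = 0.457; the smallest p that 3 against 4 lines can give is 0.0286). It turned to -0.0072 without 1398P2 replicate 1 (exact permutation p = 0.971), which leaves that line to its shallower library, at 1.47. At RPR2-only regions the difference was 0.109 (exact permutation p = 0.171) and over all regions open in any line 0.074 (exact permutation p = 0.229). Local background was read at the summits of called peaks. The comparisons at retained and RPR2-only regions are therefore not independent of the peak calls that chose those regions.

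In position, the retained regions were distal, as the RPR2-only regions were. Within 1 kb of an end of a protein-coding gene lay 53 retained regions (4.74%, exact binomial 95% interval 3.57% to 6.16%) and 66 RPR2-only regions (4.56%, 3.55% to 5.77%), against 13.9% of the regions open in any line and 55.2% of those open in all 7 lines. Inside a gene lay 54.7% of retained and 54.6% of RPR2-only regions, and over 100 kb from any gene 156 retained and 244 RPR2-only regions (16.9% of the last). Another retained region lay within 50 kb of 12.4% of the retained ones, while another RPR2-only region lay within 50 kb of 17.4% of the RPR2-only ones, whose number is larger. A region of the RPR2-only set lay within 50 kb of 137 retained regions (12.3%), against 9.03% for regions open in any line, and a retained region within 50 kb of 10.4% of the RPR2-only regions, against 7.34%. Neighbouring regions are not independent, so these shares carry no test.

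Chromosomes differed in how the regions of both sets divided. Of the retained and RPR2-only regions together, 43.6% were retained, with the highest shares on chromosome 8 (54.2%, 77 retained and 65 RPR2-only) and chromosome 1 (53.3%, 96 and 84). The lowest were on X (25.7%, 9 retained and 26 RPR2-only), chromosome 14 (31.0%, 31 and 69) and chromosome 7 (33.1%, 40 and 81). On X lay 0.805% of the retained regions, against 1.80% of the RPR2-only and 2.08% of the regions open in any line.

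**Figure D5:**
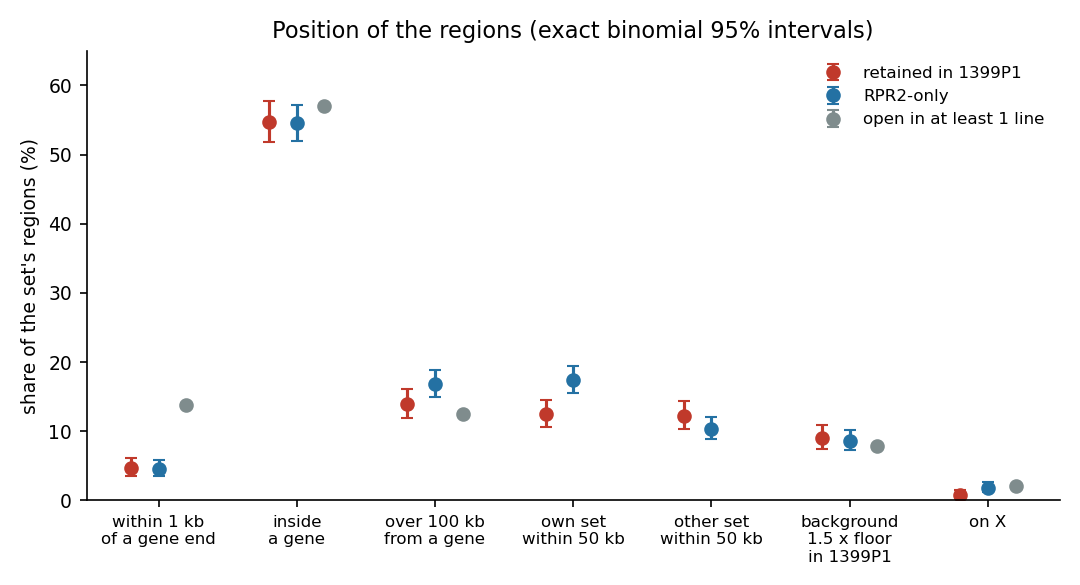
Share of the regions of a set (y axis, %) with the position named on the x axis, for retained regions, RPR2-only regions and regions open in at least 1 line; bars are exact binomial 95% intervals over regions and cover counting error only. Retained and RPR2-only regions stand together near 5% at gene ends and 55% inside genes, and apart at 12.4% and 17.4% for another region of the own set within 50 kb.

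Genes were linked to regions within the gene or 10 kb around it. At least 1 retained region lay at 741 protein-coding genes, 3.87% of the 19170 with any region, and at least 1 RPR2-only region at 896 genes, 4.67%. Both kinds lay at 136 genes, of the 741 with retained and the 896 with RPR2-only regions (15.2% of the last). Most genes had a single retained region: 675 had 1, 56 had 2, 7 had 3 and 3 had 4. Genes with retained regions were long, with a median of 71.5 kb, as were those with RPR2-only regions at 77.4 kb, against 20.4 kb for all genes with a region.

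The genes with the most retained regions were 3110082I17Rik, Gse1 and Cacna1e, with 4 each. The 4 at the 3110082I17Rik locus also take in the overlapping or neighbouring Gper1, a membrane estrogen receptor, and C130050O18Rik, with 2 each. One of them, chr5:139423114-139423797, lay over the start of Gper1 and had 10 and 11 fragments in 1399P1, against 54 and 38 in 1373M1, 31 and 35 in 12N1G and 33 and 36 in N2N1G. There 1399P1 was below every RPR2 library, an order in fragments whose share among all retained regions was not counted. Cacna1e, a voltage-gated calcium channel of neurons and neuroendocrine cells, had 4 retained and 0 RPR2-only regions. Its region at chr1:154663614-154664287 had 17 and 25 fragments in 1399P1, against 15 and 8 in 1373M1, 29 and 27 in 12N1G and 24 and 26 in N2N1G, so that 1399P1 overlapped the RPR2 libraries. Gse1, a coiled-coil protein found with histone-modifying complexes, had 4 retained and 3 RPR2-only regions among 98 in all.

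With 3 retained regions each followed Mindy4, a deubiquitinase, Col27a1, a fibrillar collagen, Tmtc1, an O-mannosyltransferase of cadherins, Zfp469, a zinc finger protein, Asap1, an Arf GTPase-activating protein of adhesion sites, Zbtb7c, a BTB zinc finger protein, and Grid1, a delta glutamate receptor. The 3 regions of Grid1 were strong in RPR2 lines, at mean ranks of 89.5 to 90.3, and lower in 1399P1, at 51.5 to 75.4. At the first, chr14:34868376-34869467, 1399P1 had 21 and 25 fragments, against 67 and 56 in 1373M1, 36 and 39 in 12N1G and 39 and 52 in N2N1G. The 3 regions of Tmtc1 ranked 10.6 to 63.0 in 1399P1 and 74.9 to 92.2 over the RPR2 lines. At chr6:148384322-148384964, 1399P1 had 17 and 20 fragments, against 26 and 34 in 1373M1, 53 and 46 in 12N1G and 41 and 42 in N2N1G. All 6 of these regions ranked lower in 1399P1 than over the RPR2 lines, as did 86.1% of all 1118 retained regions.

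Single regions of the highest mean rank over the 8 open libraries lay inside Slc24a2, Tecpr2, Csrnp3, Aass, Rad51b and Cdk6. The highest, chr4:87096054-87096672 in the neuronal sodium, calcium and potassium exchanger Slc24a2, had 35 and 35 fragments in 1399P1, against 56 and 36 in 1373M1, 211 and 198 in 12N1G and 219 and 244 in N2N1G. The lymph node lines stood apart from both other lines there. Tecpr2, a gene of autophagy, had 43 and 30 fragments in 1399P1 at chr12:110961695-110962313, against 57 and 37 in 1373M1, 63 and 60 in 12N1G and 55 and 72 in N2N1G. Csrnp3, a nuclear protein of neural tissue, had 23 and 24 in 1399P1 at chr2:66034956-66035406, against 37 to 53 in the 6 RPR2 libraries. Cdk6, a kinase of the G1 phase of the cell cycle, had 32 and 30 in 1399P1 at chr5:3404885-3405840, against 60 to 80. In these 3 genes no fragment count of 1399P1 reached the highest of the RPR2 libraries, and Csrnp3 and Cdk6 did not overlap. By rank, a measure other than fragments, 63.7% of all 1118 retained regions stood under each of the 3 RPR2 lines. The share of them without overlap in fragments was not counted. Aass, an enzyme of lysine breakdown, and Rad51b, a protein of homologous recombination, had 25 and 29, and 22 and 22, in 1399P1. In the RPR2 libraries Aass had 29 to 60 and Rad51b 30 to 51.

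The 3 lowest ranks lay inside Cuedc1, Magi1, a scaffold of cell junctions, and Cbfa2t3, a transcriptional corepressor. Low rank did not always mean few fragments: the Cuedc1 region, chr11:88158778-88159673, had 37 and 30 in 1399P1, against 32 to 61 in the RPR2 libraries, at a mean rank of 0.340 in 1399P1 and 10.2 in RPR2 lines. The Cbfa2t3 region, chr8:122665760-122666212, had 8 and 13 in 1399P1, against 13 to 22. Fold enrichment divides by local background, which differs along the genome, so rank and pileup need not agree.

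Of the NFI genes themselves, Nfia had the 1 retained region described above and no RPR2-only region, among 107 regions in all. Nfib, the targeted gene, had 0 retained and 3 RPR2-only regions, Nfix 0 and 1, and Nfic 0 and 0. Outside the retained regions, Nfia counted 67 open regions in 1399P1, 22 in 1398M1, 11 in 1399M4 and 7 in 1398P2, against 22 in 1373M1 and 30 in each of 12N1G and N2N1G. Nfib counted 15, 8, 10 and 4 in the Nfibf/f lines in the same order, against 14, 19 and 17 in the RPR2 lines, so the lines of the genotypes overlapped.

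Gene lists of neural wiring held retained regions at a higher share of their genes than the 3.87% of all genes, and their genes are long. Of 40 axon guidance genes, 8 had a retained region and 15 (37.5%) an RPR2-only region, with a median gene length of 193 kb. The 8 were Epha4, Ephb2, Plxna2, Plxna4, Plxnd1, Robo2, Unc5c and Dclk1, mostly receptors of ephrins, semaphorins, SLITs and netrins, and 4 of them held both kinds of region. Of 26 synaptic adhesion genes, 8 (30.8%) had a retained region and 14 (53.8%) an RPR2-only region, at a median length of 967 kb. They were Nlgn1, Nrxn3, Adgrl3, Tenm2, Tenm3, Cntn5, Ctnna2 and Dscam. The long genes of both lists can hold many regions of any kind, and the lists were chosen with earlier results known.

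At Ephb2, an ephrin receptor with 2 retained regions, the one at chr4:136716328-136717267 had 25 and 24 fragments in 1399P1, against 67 and 75 in 1373M1, 117 and 108 in 12N1G and 111 and 101 in N2N1G. The second, chr4:136783551-136784293, had 20 and 14 in 1399P1, against 187 and 189 in 1373M1, 68 and 90 in 12N1G and 68 and 83 in N2N1G. Both stood lower in 1399P1 than in each RPR2 library, one highest in the lymph node lines and the other in the liver line. At Robo2, a receptor of SLIT proteins, the region at chr16:74027863-74028299 had 11 and 11 fragments in 1399P1, against 21 and 17, 33 and 39, and 36 and 42 in 1373M1, 12N1G and N2N1G. At Tenm2, a teneurin, the region at chr11:36072848-36073750 had 18 and 25 in 1399P1, against 33 to 57 in the RPR2 libraries. At Plxna4, a semaphorin receptor, the region at chr6:32266084-32266700 had 9 and 5 in 1399P1, against 61 and 52 in 1373M1, 34 and 34 in 12N1G and 30 and 39 in N2N1G. None of these 5 regions, picked with their values known, overlapped between 1399P1 and the RPR2 libraries. The second region of Robo2, chr16:74847070-74847646, did, with 18 and 11 in 1399P1 against 18 and 18 in 1373M1. By rank, a measure other than fragments, 63.7% of all 1118 retained regions stood under each of the 3 RPR2 lines, so low ranks in 1399P1 are no trait of these genes. The share of all retained regions without overlap in fragments was not counted.

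Receptor and channel lists were near each other for both kinds of region. Of 27 glutamate and GABA receptor genes, 5 (18.5%) had a retained region (Grid1, Grik1, Grik3, Grm3 and Grm5) and 4 (14.8%) an RPR2-only region. Of 30 ion channel genes, 4 (13.3%) had a retained region, among them the calcium channels Cacna1a, Cacna1c and Cacna1e, and 5 (16.7%) an RPR2-only region. Cadherins counted 3 of 22 (Cdh4, Pcdh9 and Pcdh15) against 4, matrix and integrin genes 4 of 31 (Adamtsl1, Col13a1, Itga2 and Lama4) against 4, and WNT genes 3 of 24 (Lrp5, Tcf4 and Wnt7b) against 6. Among 12 neurogenic factors only Myt1l, a repressor of non-neuronal genes, held a retained region, with 2. At chr12:29570250-29570922 it had 9 and 12 fragments in 1399P1, against 50 and 33 in 1373M1, 32 and 35 in 12N1G and 38 and 38 in N2N1G.

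The list of neuroendocrine factors and markers held 0 retained regions over 20 genes, whose median length is 10.5 kb, and 1 gene with an RPR2-only region. The NOTCH and YAP list (0 of 14 genes against 1), the list of targeted genes (0 of 4 against 2), the lists of the MYC family, epithelial-mesenchymal genes, lung epithelium and hepatocytes (0 against 0 in each) and that of endothelium and fibroblasts (0 of 9 against 1) had none either. Of the 7 blood genes, Pax5 had 1 retained region. No listed gene had a retained region within 1 kb of its end.

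Beyond the retained regions, the other regions of the same genes were compared between genotypes over the 7 lines. The number of open regions per gene was counted with the 1118 retained and the 13 mirror-image regions left out, scaled by the total of the line and tested on log2(regions + 0.5) with limma, for the 6150 genes that averaged 3 regions or more. At a Benjamini-Hochberg adjusted p under 0.05, 1 gene was called (0.0163%), Pabpc4, a poly(A)-binding protein with 4 RPR2-only regions and no retained one. Of the 741 genes with retained regions, 492 were tested and 0 called. At an unadjusted p under 0.05, 86 of them (17.5%) passed, against 13.1% of all genes tested; 64 of the 86 had more regions in RPR2 lines and 22 fewer. The median log2 difference, RPR2 minus Nfibf/f, was 0.17 over the 492 and -0.01 over all genes. The RPR2-only regions stayed in these counts, although they are open in RPR2 lines and closed in Nfibf/f lines by definition. They lie at 136 of the 741 genes. The call of Pabpc4, the shares, the split and the median are thus partly drawn from such regions. They are given as a description and not as a test of genotype.

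That count of calls depended on single choices. Without 1398P2 replicate 2 it was 40, of which 34 had fewer regions in RPR2 lines, and 4 were genes with retained regions. Without 1373M1 replicate 1 it was 2, and without the line 1399P1, or with 12N1G and N2N1G averaged into 1 line, it was 0, where 738 and 441 genes passed an unadjusted p under 0.05. Without scaling by the line total 23 genes were called, 12 with more and 11 with fewer regions in RPR2 lines.

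Among genes with at least 2 retained regions, the smallest p-values belonged to Mindy4, Tcf20, Tspan18, Osbpl10 and Tenm3, none of which passed the adjusted threshold. RPR2-only regions stayed in these counts too, 2 at Tcf20, 2 at Tenm3, 1 at Tspan18 and 0 at Mindy4 and Osbpl10. The p-values of Tcf20, Tenm3 and Tspan18 are thus partly drawn from regions chosen by the same contrast. Mindy4 had 4 other open regions in 1399P1, 3 in 1398M1, 2 in 1399M4 and 1 in 1398P2, against 6 in 1373M1, 6 in 12N1G and 5 in N2N1G, so that its 3 RPR2 lines stood above all 4 Nfibf/f lines (difference of 1.09 in log2 regions with SE 0.25, limma adjusted p = 0.189). Tcf20, a transcriptional coregulator, had 12, 10, 4 and 4 in the Nfibf/f lines in the same order, against 16, 17 and 17 in the RPR2 lines (log2 difference 1.17, SE 0.32, limma adjusted p = 0.205). In both genes 1399P1 had the most regions of the Nfibf/f lines, in counts not scaled by the line total. That line also had the most open regions of any line, 66396, and the share of all genes with this order was not counted. Tenm3, a teneurin of synaptic adhesion, had 7, 3, 3 and 0, against 12, 8 and 11 (log2 difference 2.11, SE 0.70, limma adjusted p = 0.267). Tspan18, a tetraspanin, had 9, 9, 5 and 4, against 12, 12 and 12, and Osbpl10, an oxysterol-binding protein, 7, 6, 3 and 2, against 10, 7 and 8. The first did not overlap between genotypes and the second did, at 7 regions. How many of all genes tested had lines that stood apart by genotype was not counted. Line 1398P2, lowest in each of these genes, had the fewest open regions of any line, 28947. Of the genes with the most retained regions, Tmtc1 went the other way, with 7 in 1399P1, 4 in 1398M1, 4 in 1399M4 and 2 in 1398P2, against 3, 2 and 1 in the RPR2 lines (log2 difference -0.97, SE 0.34, limma adjusted p = 0.275). The log2 difference was -0.50 without N2N1G replicate 2, and its direction turned when the 3 retained regions were counted in, at 0.09.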

How the data were processed

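The data are 14 peak lists, 1 per library and not pooled. The tools named, per the submitters' processing notes, are MACS2, SAMtools, Picard, Bowtie2 and cutadapt 2.10, and the builds GRCm38 and mm10; of tool settings and any Tn5 offset correction nothing is stated in the sources used here, and fragment ends may be displaced by a few bases. The fold enrichment of each summit is a ratio to local background that the authors deposited, beside its -log10 p-value and -log10 q-value and a score that was not used. The members, gene lists and motifs were chosen with earlier results of these data known.

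Pileup and local background were solved from fold enrichment and p with the caller's Poisson model for 1193510 summits; 99.9997% of the solved pileups were whole to a tolerance of 0.02. The lowest background of a library is its floor. Ranks were taken within a library, and values were compared across libraries as ranks or as multiples of the floor. A bin needed 3 summits. Lines were the replicates, and libraries of a line were averaged or asked to agree. Genes and promoter windows came from RefSeq tables of GRCm38.p6, and positions are 1-based on GRCm38. Tests were an exact permutation test over lines and limma 3.58.1 in R 4.3.3, with trend and Benjamini-Hochberg adjustment over all genes tested; tables and figures were made with Python 3.11.15. Named genes were the 12 with most retained regions, NFI genes, listed genes with a retained region at a gene end, the 6 highest and 3 lowest regions by rank, and the 5 smallest limma p-values among genes with 2 or more retained regions; the promoters and the other list genes were chosen after their values were seen. On simulated Poisson counts, limma called 92 of 100 genes changed 4-fold and 100 of 100 changed 8-fold among 6253 genes, and 8 unchanged genes. The simulated lines of a genotype differed by counting error and line total only. These shares therefore do not give the power of the fit over the real lines. Alternatives were other peak thresholds, overlaps, depths, bins, distances, filters, scalings and left-out libraries. Promoters on chromosome 18 were not analysed here, and motifs in whole regions were not searched.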

Additional observations from a re-analysis of the deposited data

Results flagged for a closer look

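Among 29 groups of 4 Nfibf/f lines that were examined, 4 had a line that stood apart by Dixon's test at the 95% level; chance alone marks about 1 such group in 20. In 3 of them, which are neighbouring bins of a single stretch already known to be raised in 1399P1 and so count as 1 observation with no new support, the line was 1399P1, whose local background stood at 13.9 times the floor on chromosome 4 from 95 Mb, 11.3 from 96 Mb and 13.5 from 97 Mb, against 1.00 to 1.07 in the other 3 Nfibf/f lines. These bins hold 4 retained regions. The fourth was the count of other open regions near Zfp469, 8 in 1398P2 and 14, 13 and 14 in 1399P1, 1398M1 and 1399M4; 1398P2 also has the library with the fewest peaks, and its part in this count was not tested.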

How the results depend on the processing

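The number of retained regions was 1118 as reported. It was 593 when a peak had to cover the greater part of the merged region and 228 with equal numbers of peaks per library, and 1118 to 1379 when 1 library was left out; the count of RPR2-only regions was 1138 to 1788 over all settings run and 1447 to 1788 over the left-out libraries. Equal numbers remove the weaker peaks by construction; the cause of the other change was not tested. The difference in local background, RPR2 minus Nfibf/f, was -0.0072 to 0.080 over the left-out libraries, and it reversed to -0.0072 without 1398P2 replicate 1. Shares by distance moved with the distance: within 2 kb of a gene end 6.98% of retained and 6.98% of RPR2-only regions. Median ranks by -log10 q stayed within 5 points.

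The limma count of 1 gene was 12 with no filter but a mean above 0, 23 without scaling, 0 with 12N1G and N2N1G averaged into 1 line, 0 without 1399P1, and 1 to 40 over the left-out libraries. With 14 libraries, the line as a random effect and the replicate number as a block it was 298, 22 of them genes with retained regions; the limma adjusted p then passed for Mindy4 (0.020), Tcf20 (0.020), Tspan18 (0.015), Tenm3 (0.011), Tmtc1 (0.045) and Nfib (0.013), which did not pass over 7 lines. The replicate number does not pair libraries: the deviations of replicate 1 correlated at -0.12 to 0.15 over 21 pairs of lines, 2 of them above 0.1, and not every library correlated best with its own number. Genotype does not vary within a line, so the fit with 14 libraries still rests on 7 lines. The spread between a line's libraries may be technical, and the calls of that fit are not taken as results. The log2 difference of Tmtc1 reversed to 0.094 with no region left out. Motif shares over whole regions were not run. A closed call holds only at the depth reached, which was lowest in 1398P2 replicate 2.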
